A study of Mus musculus with 8 samples.

Results

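The 10 genes described here encode transcription factors of mesenchymal cells: Prrx1, Prrx2, Osr1, Osr2, Tbx15, Tbx18, Foxc1, Foxc2, Snai1 and Snai2. They were chosen by name from the 2 deposited gene tables, with earlier results of these data known. All 10 are in the AE9a table, among 55421 rows, and 9 are in the MLL-AF9 table, among 15994 rows; Osr2 has no row there. RNA came from cultured bone marrow stromal cells (BMSC), the adherent cells grown from whole marrow and bone. The cultures came from Id1-/- mice or from Id1+/+ mice, and both genotypes were hosts of a transplanted acute myeloid leukaemia, harvested 6 weeks after transplantation. That leukaemia carried either the oncogene MLL-AF9, which joins KMT2A to MLLT3, or AE9a, a shortened AML1-ETO form, and no culture from a mouse without leukaemia was used here. The Id1 allele, strain, age, and how many animals went into a culture are not given in the sources used here, and p-values therefore measure the spread between libraries, which may be technical.

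The MLL-AF9 comparison rests on 2 Id1-/- libraries and 2 Id1+/+ libraries of 17864812 to 22510346 counts. In the AE9a table the 2 columns of each genotype were not counted as separate libraries: 1 equals the other plus a constant, 17 in all 14187 Id1-/- genes with at least 10 counts and 134 in 17957 of 17958 Id1+/+ genes with at least 2 counts. The columns without the constant were used, of 18126803 counts for Id1-/- and 20967896 for Id1+/+, and AE9a values are thus single measurements with no replicate check. Id1 itself had 226 and 222 counts in MLL-AF9 Id1-/- against 706 and 632 in Id1+/+, and 83 counts in AE9a Id1-/- against 383 in Id1+/+, so reads on the gene remained under the knockout label in both models. Of 20 macrophage markers none was at 0 in any MLL-AF9 library, and their sum made up 2.58% and 2.53% of CPM (counts scaled to a common library size) in Id1-/- against 3.16% and 2.86% in Id1+/+. That sum exceeded the sum of 18 mesenchymal stromal markers, which was 0.252% and 0.268% in Id1-/- against 0.117% and 0.123% in Id1+/+. In AE9a the macrophage sum was 2.89% in Id1-/- against 3.76% in Id1+/+, and the mesenchymal sum was 0.14% in Id1-/- against 0.0691% in Id1+/+. Among those mesenchymal markers Ngfr has no row in the MLL-AF9 table, and Lum and Thy1 had at most 17 counts in any of its libraries. In such bulk RNA more cells of a type and more RNA per cell cannot be told apart.

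The 10 factors form 5 pairs of related genes that act in mesenchyme during development. Prrx1 and Prrx2 are paired-related homeodomain proteins of limb and craniofacial mesenchyme, and Prrx1 regulatory sequence is a widely used marker of limb skeletal progenitors in mice. Osr1 and Osr2 are zinc finger proteins of the odd-skipped family, Tbx15 and Tbx18 are T-box proteins of limb and body wall mesenchyme and of pericytes, and Foxc1 and Foxc2 are forkhead proteins. In mouse marrow Foxc1 is needed for the CXCL12-abundant reticular cells that hold haematopoietic stem cells. Snai1 and Snai2 (Slug) are zinc finger repressors that bind E-box sequences and shut off epithelial adhesion genes such as Cdh1 in the epithelial-mesenchymal transition (EMT). ID1 is a helix-loop-helix protein without a DNA-binding region that holds basic helix-loop-helix factors away from E-boxes.

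Because that biology turns on short DNA motifs and 9 of the factors differed in the same direction, the promoter windows were read for them: 250 bases before and 50 after the annotated start, from RefSeq on GRCm38.p6, which has entries for 5 of the 10 factors (Prrx1, Prrx2, Tbx18, Foxc1 and Snai1). Both strands were searched for the E-box CANNTG, for its forms CAGGTG and CAGCTG, which are among the matches of CANNTG, and for the homeodomain motif TAATTA, the forkhead motif GTAAACA and the T-box motif AGGTGTGA. Among the 5 windows 3 held a match, and those 3 are shown 5′ to 3′ on the gene's strand, with the match in capitals. The Prrx1 window lies at chr1:163313601-163313900 (minus strand), the Tbx18 window at chr9:87731211-87731510 (minus strand) and the Snai1 window at chr2:167537945-167538244 (plus strand).
Prrx1: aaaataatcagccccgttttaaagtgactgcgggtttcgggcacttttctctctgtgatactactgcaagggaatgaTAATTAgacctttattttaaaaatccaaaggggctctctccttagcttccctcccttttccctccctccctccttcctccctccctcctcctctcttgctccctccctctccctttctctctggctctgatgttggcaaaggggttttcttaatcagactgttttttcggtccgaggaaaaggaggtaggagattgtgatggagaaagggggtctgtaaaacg
Tbx18: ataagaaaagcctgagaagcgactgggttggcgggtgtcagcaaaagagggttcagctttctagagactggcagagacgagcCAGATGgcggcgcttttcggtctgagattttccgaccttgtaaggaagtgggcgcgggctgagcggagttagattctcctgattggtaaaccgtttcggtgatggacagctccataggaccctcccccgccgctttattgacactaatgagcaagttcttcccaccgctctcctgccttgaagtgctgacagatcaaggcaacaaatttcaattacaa
Snai1: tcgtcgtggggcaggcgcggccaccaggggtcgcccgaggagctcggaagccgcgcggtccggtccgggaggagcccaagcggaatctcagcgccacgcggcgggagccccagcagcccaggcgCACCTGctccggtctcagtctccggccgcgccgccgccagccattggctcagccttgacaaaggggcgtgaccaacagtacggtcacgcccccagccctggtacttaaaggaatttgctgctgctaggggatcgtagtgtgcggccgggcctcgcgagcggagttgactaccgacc
The Prrx1 window has 1 TAATTA, starting at position -173 from the transcription start, and 5.29% of all 32851 windows hold that motif. The Snai1 window has 1 E-box, CACCTG at -126, which is CAGGTG on the other strand, the form bound by Snail proteins; 20.2% of all windows hold it. The Tbx18 window has the E-box CAGATG at -168. An E-box of any kind is in 72.3% of all windows and in 2 of these 5. No CAGCTG, which 16.3% of all windows hold, no GTAAACA, which 3.65% hold, and no AGGTGTGA, which 1.28% hold, is in the 5. The windows differ in base composition: GC content is 70.3% for Prrx2, 70.0% for Snai1 and 67.3% for Foxc1, against 51.7% for Tbx18, 47.7% for Prrx1 and a median of 52.7% over all windows. The Prrx2 window, at chr2:30845117-30845416 (plus strand), lies inside the gene span given below (30834972 to 30881251). Its GC content and lack of matches thus describe a start within that span, not its outer end.

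In MLL-AF9 cultures all 9 factors in the table were higher in Id1-/- than in Id1+/+, between 1.65-fold (Foxc2) and 3.88-fold (Osr1). All 9 passed the filter on low counts, with at least 13 counts in every library. Both Id1-/- libraries lay above both Id1+/+ libraries for each of the 9, as for 33.5% of all genes tested, and each of the 9 passed the test (edgeR quasi-likelihood, Benjamini-Hochberg (BH) adjusted over 14137 genes, threshold 0.05), against 17.2% of all genes that were called higher, 10.6% called lower and 27.8% called in either direction. Their median log2 fold change of Id1-/- over Id1+/+ was 1.19, against 0.00 over all genes tested. Because the factors were chosen with earlier results of these data known, these shares describe the set and do not test it. Summed, the factors stood at 203 ± 6.65 CPM in Id1-/- and 84.4 ± 2.18 in Id1+/+ (SD, n = 2 each). The call of each of the 9 held in all 10 alternative analyses. Scaling by library totals in place of TMM factors raised the median of all genes by 0.11 on the log2 scale and made 84.0% of all calls higher ones, against 61.8% with TMM; the 9 factors exceeded that shift.

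**Figure D1:**
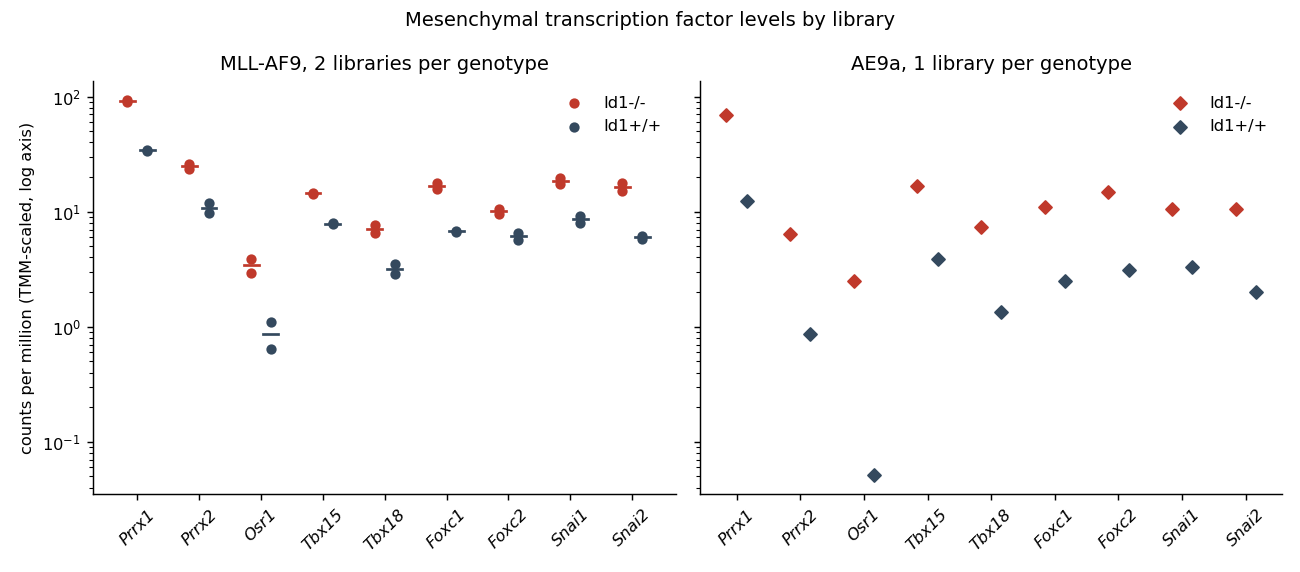
CPM (TMM-scaled, log axis) of 9 factors in each library, with Id1-/- (red) left of Id1+/+ (dark blue) for every gene; circles are MLL-AF9 libraries with a bar at the mean of 2, diamonds are the single usable AE9a libraries. Every Id1-/- point lies above the Id1+/+ points of its gene and model, for Prrx1 at 89.1 and 93.8 CPM in MLL-AF9 Id1-/- and 33.7 and 34.7 in Id1+/+.

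Prrx1 (ENSMUSG00000026586.16, chromosome 1, 163245119 to 163313710, minus strand of GRCm38) had 1742 and 1733 counts in the Id1-/- libraries, or 89.1 and 93.8 CPM, against 688 and 760 counts, or 33.7 and 34.7 CPM, in the Id1+/+ libraries. The libraries of a genotype nearly coincide, and the genotypes do not overlap. Prrx1 rose 2.67-fold (log2 1.42, SE 0.09, edgeR adjusted p = 8.91e-09). Its relative Prrx2 (ENSMUSG00000039476.13, chromosome 2, 30834972 to 30881251) had 462 and 478 counts in Id1-/- (23.6 and 25.9 CPM) against 242 and 215 in Id1+/+ (11.9 and 9.81 CPM). Prrx2 rose 2.29-fold (log2 1.19, SE 0.13, adjusted p = 4.72e-06). Genes with a larger log2 fold than Prrx1 made up 4.5% of all genes tested.

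Osr1 (ENSMUSG00000048387.8, chromosome 12, 9570116 to 9581500), which in mouse development marks intermediate mesoderm and early connective tissue progenitors, had the fewest counts of the 9 factors in the MLL-AF9 table. It had 57 and 72 counts in Id1-/- (2.92 and 3.9 CPM) against 13 and 24 in Id1+/+ (0.64 and 1.1 CPM). The groups do not overlap, but each library of a genotype differs from the other by more, in proportion, than for Prrx1. Osr1 rose 3.88-fold, with the widest error of the 9 (log2 1.96, SE 0.34, adjusted p = 0.000488, and up to 0.0117 over the alternatives). Over the alternatives its log2 fold ran between 1.62 and 2.39. Osr2 (ENSMUSG00000022330.5, chromosome 15), a palate and joint factor in mice, had 1 count in AE9a Id1-/- and 3 in AE9a Id1+/+. An AE9a ratio was taken only where at least 1 of the 2 counts exceeded 3, so no fold is given for Osr2.

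The T-box factor Tbx15 (ENSMUSG00000027868.11, chromosome 3, 99240381 to 99354259), which shapes the skeleton of the limb girdles in mice, had 280 and 270 counts in Id1-/- (14.3 and 14.6 CPM) against 162 and 170 in Id1+/+ (7.94 and 7.76 CPM). The spread within each genotype was small, and Tbx15 rose 1.84-fold (log2 0.88, SE 0.14, adjusted p = 0.000227). Tbx18 (ENSMUSG00000032419.8, chromosome 9, 87702800 to 87731260, minus strand), a marker of pericytes and of somite and heart mesenchyme in mice, had 149 and 121 counts in Id1-/- (7.62 and 6.55 CPM) against 72 and 63 in Id1+/+ (3.53 and 2.88 CPM). It rose 2.22-fold (log2 1.15, SE 0.21, adjusted p = 0.000706). Tbx18 is the only factor of the 10 with an exon under an annotated exon of another gene, the opposite-strand D030062O11Rik, which had 0 counts in AE9a Id1-/- and 2 in AE9a Id1+/+; whether counting used strand is not stated.

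Foxc1 (ENSMUSG00000050295.4, chromosome 13, 31806633 to 31812476, a gene of 1 exon) had 345 and 290 counts in Id1-/- (17.7 and 15.7 CPM) against 137 and 149 in Id1+/+ (6.71 and 6.8 CPM). It rose 2.47-fold (log2 1.30, SE 0.14, adjusted p = 5.17e-06). Foxc2 (ENSMUSG00000046714.7, chromosome 8, 121116171 to 121118895, also 1 exon), a factor of lymphatic and paraxial mesoderm development, had 206 and 177 counts in Id1-/- (10.5 and 9.58 CPM) against 134 and 124 in Id1+/+ (6.57 and 5.66 CPM). Its rise of 1.65-fold was the smallest of the 9 (log2 0.72, SE 0.17, adjusted p = 0.00446), with an adjusted p of up to 0.0421 over the alternatives. Genes with a larger log2 fold than Foxc2 made up 13.1% of all genes tested, and 1.89% had a larger one than Osr1, the ends of the range over the 9.

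Snai1 (ENSMUSG00000042821.7, chromosome 2, 167538195 to 167542814), whose promoter with its CACCTG is shown above, had 339 and 366 counts in Id1-/- (17.3 and 19.8 CPM) against 187 and 176 in Id1+/+ (9.16 and 8.03 CPM). It rose 2.16-fold (log2 1.11, SE 0.14, adjusted p = 2.16e-05). Snai2 (ENSMUSG00000022676.7, chromosome 16, 14705852 to 14709385) had 296 and 330 counts in Id1-/- (15.1 and 17.9 CPM) against 119 and 135 in Id1+/+ (5.83 and 6.16 CPM). It rose 2.75-fold (log2 1.46, SE 0.15, adjusted p = 2.75e-06), and as for Snai1 no Id1-/- library reached down to an Id1+/+ library.

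Set on a scale per length (CPM per kb of all annotated exons), the order in MLL-AF9 Id1-/- ran from Prrx2 at 12.6 ± 0.81 over Snai1 at 11.5 ± 1.08, Prrx1 at 8.27 ± 0.3, Snai2 at 8.16 ± 0.95, Tbx15 at 3.87 ± 0.06, Foxc2 at 3.71 ± 0.25, Foxc1 at 2.86 ± 0.24 and Osr1 at 1.65 ± 0.34 to Tbx18 at 1.5 ± 0.16 (SD, n = 2). Prrx2 and Snai1, Prrx1 and Snai2, Tbx15 and Foxc2, and Osr1 and Tbx18 are neighbours whose ranges of mean ± SD overlap. In Id1+/+ Prrx2 was at 5.51 ± 0.74, Snai1 at 5.31 ± 0.49, Prrx1 at 3.09 ± 0.06 and Snai2 at 2.97 ± 0.12 CPM per kb, the same order at the top. The place of Prrx1 depends on the length taken: per kb of the longest coding transcript, a choice made after seeing the data, it stood at 14 in Id1-/- and 5.24 in Id1+/+, with Prrx2 at 17.2 in Id1-/- and 7.49 in Id1+/+, so that Prrx1 passed Snai1 at 11.5 in Id1-/-.

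Ratios per length compare the members of a pair within a library. Foxc1 over Foxc2 was 0.781 and 0.764 in the Id1-/- libraries against 0.477 and 0.56 in the Id1+/+ libraries, and these do not overlap. Snai1 over Snai2 was 1.43 and 1.38 in Id1-/- against 1.96 and 1.63 in Id1+/+, also without overlap. Prrx1 over Prrx2, at 0.668 and 0.642 in Id1-/- against 0.504 and 0.626 in Id1+/+, did not overlap either, with 0.642 and 0.626 as the nearest values. Tbx15 over Tbx18, at 2.37 and 2.81 in Id1-/- against 2.83 and 3.4 in Id1+/+, had 2.81 and 2.83 as its nearest values. No test was made of these ratios, and 2 libraries can lie apart from 2 others without a genotype difference. In the single AE9a libraries 2 pairs went the opposite way: Foxc1 over Foxc2 (0.345 in Id1-/-, 0.375 in Id1+/+) and Prrx1 over Prrx2 (1.92 in Id1-/-, 2.52 in Id1+/+). Snai1 over Snai2 (1.25 in Id1-/-, 2.08 in Id1+/+) and Tbx15 over Tbx18 (2.87 in Id1-/-, 3.68 in Id1+/+) went the same way.

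In AE9a cultures, with 1 usable library per genotype and so no test, the same 9 factors had ratios of Id1-/- over Id1+/+ between 3.17 (Snai1) and 49.4 (Osr1). All 9 averaged 1 CPM or more over the libraries and were at least 2-fold higher, as were 11.6% of the 12720 genes of that level, while 1.52% were at least 2-fold lower. Of genes at that level, 10 of 14 mesenchymal stromal markers and 13 of 16 mesenchymal EMT genes were also at least 2-fold higher, with 0 lower. So were 14 of 19 other mesenchymal and skeletal factors, with 1 lower. The rise in AE9a was thus not particular to the 9 factors. Prrx2 and Osr1 reach a mean of 1 CPM only through the Id1-/- library, so their place among the 9 is partly set by the threshold. The median log2 ratio was 2.33, against -0.01 over all genes of that level. Both medians were taken with a prior count of 2, a small count added to both libraries, unlike the ratios of 3.17 to 49.4. Intervals given here are 95% exact binomial intervals for 2 counts and cover counting error alone, because no molecular identifiers were counted and reads may repeat a molecule.

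Prrx1 had 1343 counts in AE9a Id1-/- (69.2 CPM) against 242 in Id1+/+ (12.4 CPM), a ratio of 5.6 (4.88 to 6.45). Prrx2 had 124 counts in Id1-/- against 17 in Id1+/+, a ratio of 7.36 (4.41 to 13). Osr1 had 49 counts in Id1-/- and 1 in Id1+/+, and its ratio of 49.4 has an interval of 8.46 to 1990, so that only the lower bound carries information. For the T-box pair the intervals overlap: Tbx15 had 326 counts in Id1-/- against 76 in Id1+/+, a ratio of 4.33 (3.36 to 5.63). Tbx18 had 143 in Id1-/- against 26 in Id1+/+, a ratio of 5.55 (3.63 to 8.78). Both T-box factors thus had more than 3 times the Id1+/+ level at the lower bound. Foxc1 had 213 counts in Id1-/- against 49 in Id1+/+, a ratio of 4.38 (3.2 to 6.11). Foxc2, the factor with the smallest fold in MLL-AF9, had 288 in Id1-/- against 61 in Id1+/+, a ratio of 4.76 (3.6 to 6.39). Foxc1 over Foxc2 per length was 0.345 in AE9a Id1-/- and 0.375 in AE9a Id1+/+, below each of the 4 MLL-AF9 libraries. Snai1 had 204 counts in Id1-/- against 65 in Id1+/+, a ratio of 3.17 (2.38 to 4.25). Snai2 had 203 in Id1-/- against 39 in Id1+/+, a ratio of 5.25 (3.71 to 7.6).

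**Figure D2:**
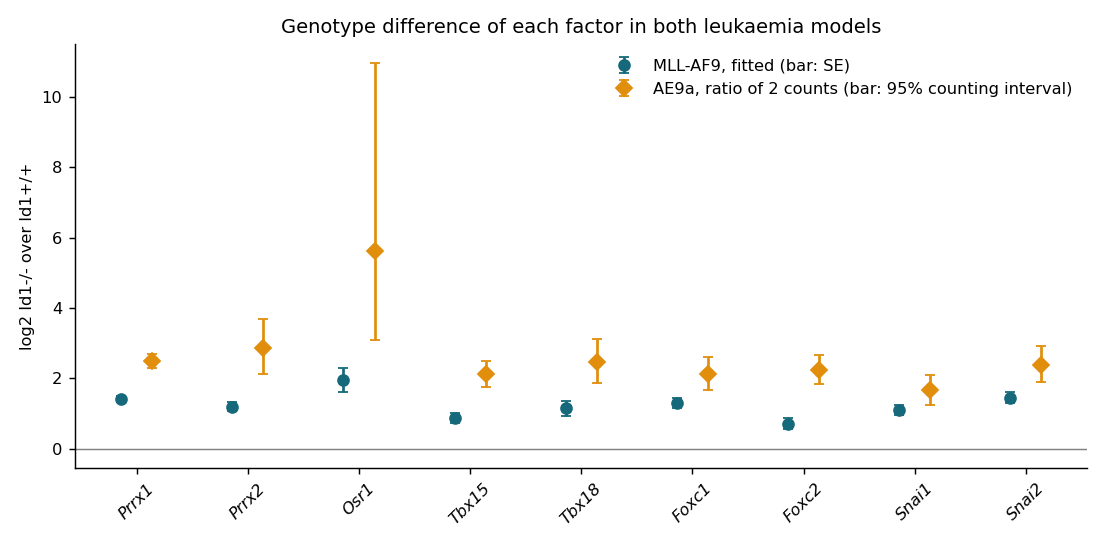
Log2 of Id1-/- over Id1+/+ for 9 factors in MLL-AF9 (circles, edgeR fit of 2 libraries per genotype, bars are the SE) and in AE9a (diamonds, ratio of 1 library to 1, bars are 95% exact binomial intervals that cover counting error only). All values lie above 0, and the AE9a value is the larger for each gene, from 3.17-fold for Snai1 to 49.4-fold for Osr1 on 1 Id1+/+ count.

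Whether the genotype difference was of the same size in both models was tested as an interaction in 1 edgeR fit of the 6 usable libraries, in which the spread comes from MLL-AF9 alone and is assumed to hold for the single AE9a libraries. The estimate, the MLL-AF9 log2 difference minus that of AE9a, was below 0 for all 9 factors, with a median of -1.14 against 0.09 over all 15110 genes fitted. The direction was shared by 16 of 17 mesenchymal stromal markers (median -1.05) and by 13 of 18 mesenchymal genes of the EMT programme (median -0.55). For the factors, the estimate was therefore not particular in direction. Nor was passing the test particular to them. Of the 17 markers, 7 passed with a smaller and 0 with a larger difference in MLL-AF9. Of the 18 EMT genes, 9 passed with a smaller and 1 with a larger difference. Among the factors the estimate passed the test for 4 of the 9, against 3.73% of genes with a smaller and 6.57% with a larger difference in MLL-AF9. These were Prrx1 (-0.98, SE 0.17, adjusted p = 0.00208), Foxc2 (-1.44, SE 0.295, adjusted p = 0.00651), Tbx15 (-1.14, SE 0.26, adjusted p = 0.0114) and Prrx2 (-1.59, SE 0.37, adjusted p = 0.0131). Osr1 (-3.43, adjusted p = 0.0569), Tbx18 (-1.23, 0.0619), Snai2 (-0.84, 0.103), Foxc1 (-0.74, 0.122) and Snai1 (-0.46, 0.338) did not pass it. With DESeq2 the call was kept by Prrx1 and Prrx2 and lost by Tbx15 (adjusted p = 0.0995) and Foxc2 (0.0567), and with library totals as the scale Tbx18 passed too (0.0459).

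The Id1+/+ levels differed between the tables: Prrx1 was at 12.4 CPM in AE9a Id1+/+ beside 33.7 and 34.7 in MLL-AF9 Id1+/+, and Prrx2 at 0.87 CPM beside 11.9 and 9.81. In Id1-/- the levels lay nearer to each other for Tbx15, at 16.8 CPM in AE9a beside 14.3 and 14.6 in MLL-AF9, and for Tbx18, at 7.37 beside 7.62 and 6.55. Prrx2 stayed apart in Id1-/- as well, at 6.39 CPM in AE9a beside 23.6 and 25.9. Prrx1 over Prrx2 per length was 1.92 in AE9a Id1-/- and 2.52 in AE9a Id1+/+, above every MLL-AF9 library. These levels were scaled within each table. With the 6 usable libraries scaled together, Prrx1 was at 13.7 CPM in AE9a Id1+/+ beside 33.6 and 34.5 in MLL-AF9 Id1+/+. Prrx2 was then at 0.963 CPM beside 11.8 and 9.76. Model, table and any scaling across tables cannot be told apart in these levels.

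Mesenchymal stromal markers had 10 of 17 tested genes higher and 0 lower in MLL-AF9 (median log2 0.95), with Pdgfrb, the receptor of platelet-derived growth factor B on pericytes and stromal cells, at 59.6 ± 7.22 CPM in Id1-/- and 28.4 ± 1.44 in Id1+/+. Nes, an intermediate filament protein of perivascular stromal cells, was at 41.2 ± 4.32 CPM in Id1-/- and 18.8 ± 2.59 in Id1+/+. Of that list Col1a1 and Col3a1 also stand in the EMT list and Lepr in the niche list. The other 7 tested markers were not called. A few abundant genes make up most of the summed CPM of this list: Col1a1 was at 1213 and 1372 CPM in MLL-AF9 Id1-/- against 181 and 225 in Id1+/+, while Cd44, not called, was at 479 and 464 CPM in Id1-/- against 494 and 486 in Id1+/+. In AE9a Col1a1 was at 349 CPM in Id1-/- against 62.2 in Id1+/+, and Cd44 at 430 CPM in Id1-/- against 400 in Id1+/+. The part of these marker levels in the result was not tested.

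Macrophage markers were lower in sum in Id1-/-, with 5 of 20 called higher and 8 called lower (median log2 -0.11). Lyz2, the lysozyme of macrophages and neutrophils, makes up much of that sum, at 13420 and 12730 CPM in Id1-/- against 16700 and 14320 in Id1+/+, and at 19500 CPM in AE9a Id1-/- against 25800 in AE9a Id1+/+. Over the 19 markers that averaged 1 CPM or more in AE9a the median log2 ratio was 0.05, with 1 at least 2-fold higher and 0 at least 2-fold lower. Scaling by library totals reduced the 8 to 3, leaving out the first library of either genotype reduced it to 4, and leaving out the second Id1-/- library reduced it to 3. The scavenger receptors Marco (log2 1.86) and Mrc1 (0.68) and the complement chain C1qa (0.55) rose, and the Fc receptor chain Fcer1g fell by 0.72 on the log2 scale. Of 9 endothelial markers 6 were tested and 0 were called by edgeR, DESeq2 or limma-voom, against 2 at an unadjusted p under 0.05. Leaving out the second Id1+/+ library gave 1 called higher, as did the fits with the first Id1-/- library left out, with library totals or with the replicate number as a block. The endothelial sum was 68.4 and 80.1 CPM in MLL-AF9 Id1-/- against 59.2 and 67.5 in Id1+/+, and 185 CPM in AE9a Id1-/- against 280 in AE9a Id1+/+.

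**Figure D3:**
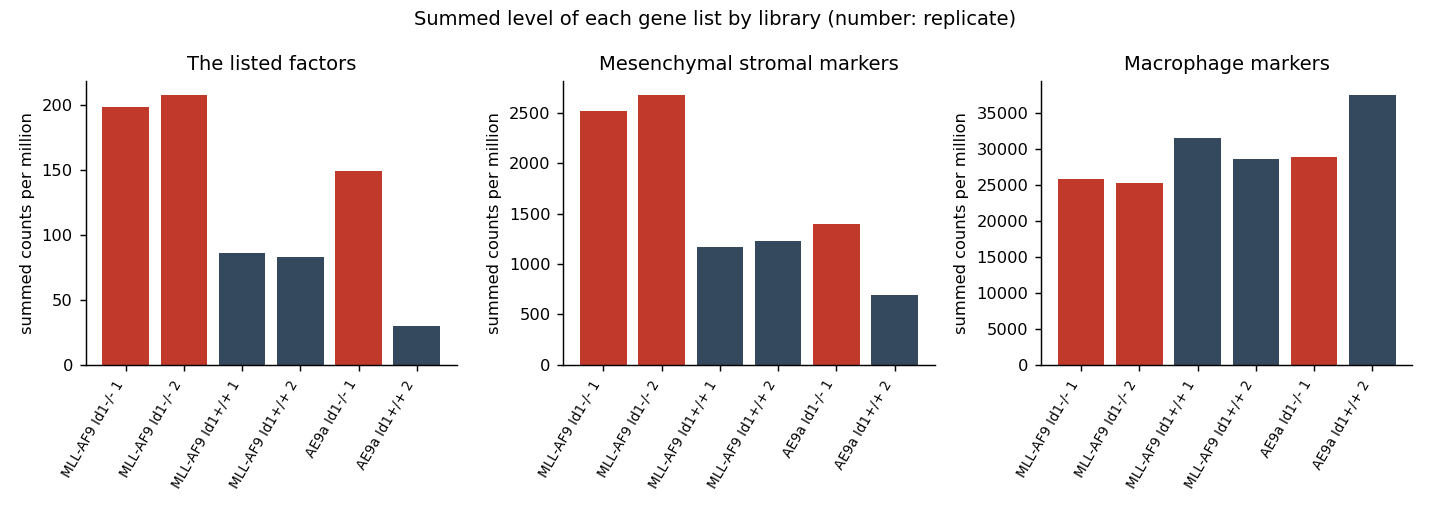
Summed CPM of the listed factors, of 18 mesenchymal stromal markers and of 20 macrophage markers in each of the 6 usable libraries (red Id1-/-, dark blue Id1+/+, each axis starting at 0). The factors summed to 198 and 208 CPM in MLL-AF9 Id1-/- against 86 and 82.9 in Id1+/+, and to 149 in AE9a Id1-/- against 29.6 in Id1+/+; the macrophage sum, of which Lyz2 is a large share, is lower in Id1-/- in both models.

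Other transcription factors gave a mixed picture. Of 5 further EMT factors 4 were tested and 2 rose: the basic helix-loop-helix factor Twist1, at 13.9 ± 0.74 CPM in Id1-/- and 4.94 ± 0.01 in Id1+/+ (log2 1.49, SE 0.16, adjusted p = 2.94e-06), and the zinc finger repressor Zeb1 (log2 1.08, adjusted p = 0.000136). Zeb2, at 256 ± 9.79 CPM in Id1-/- and 241 ± 25.3 in Id1+/+, was not called (log2 0.08, adjusted p = 0.504). In AE9a Twist1 was at 6.75 CPM in Id1-/- against 2.15 in Id1+/+, and Zeb2 at 313 in Id1-/- against 375 in Id1+/+. Among 24 other genes of the paired-related, T-box and forkhead families 14 were tested and 6 rose, with 0 lower and a median log2 of 0.51. The cell cycle forkhead factor Foxm1 (log2 1.31), the limb homeodomain factors Shox2 (1.22) and Alx4 (2.50) and the forkhead factor Foxo3 (0.36) led by adjusted p. Of that family list 3 were called higher when the second Id1-/- library was left out, and 10 with library totals or with the replicate number as a block.

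Of 37 other mesenchymal and skeletal factors 23 were tested, of which 14 rose and 1, Id1 itself, fell (median log2 1.12). Among the rising factors with the smallest adjusted p were Tead1, a partner of the Hippo pathway coactivators (log2 1.34), and Sp7 (osterix), which commits osteoblasts (1.52). The 14 became 9 with DESeq2, and also when the second Id1+/+ library or either Id1-/- library was left out. The 9 described factors, all called, thus stand beside lists in which a part of the tested genes was called. Those lists were assembled by hand, and both they and the factors were chosen with earlier results of these data known. The contrast between them is therefore a description only.

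**Figure D4:**
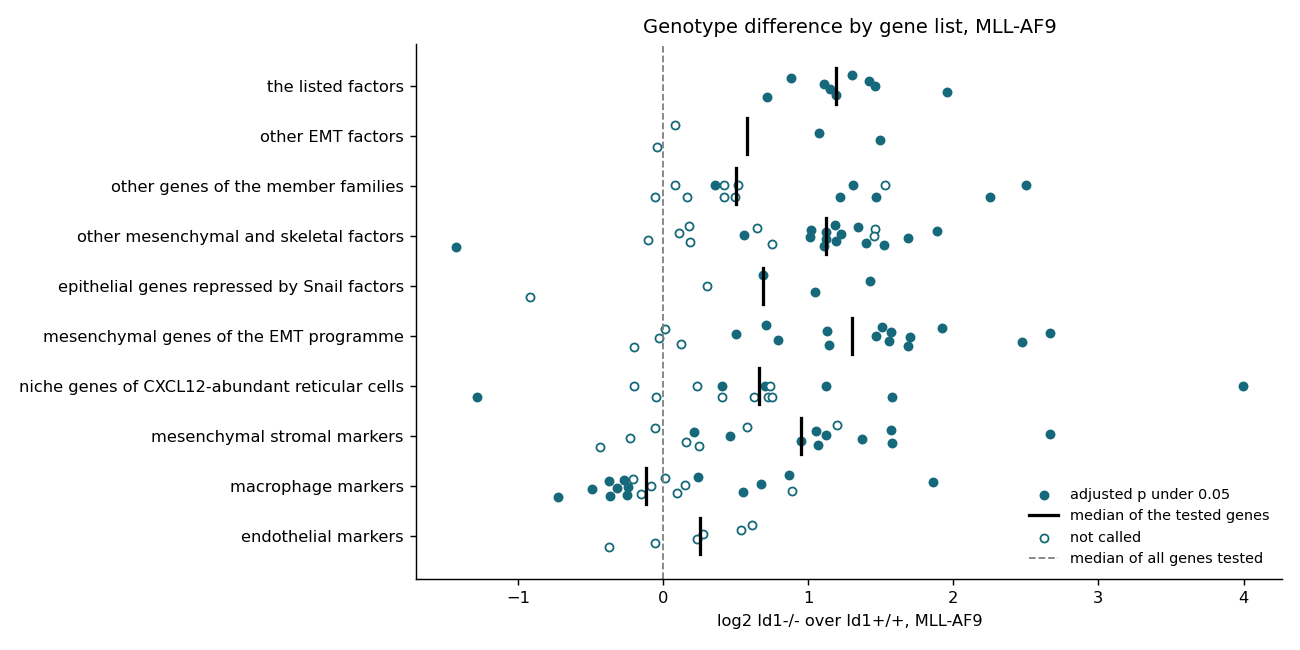
Log2 of Id1-/- over Id1+/+ in MLL-AF9 for every tested gene of each list; filled circles passed the edgeR test (adjusted p under 0.05), open circles did not, vertical bars are list medians and the dashed line is the median of all genes tested. The listed factors have a median of 1.19 and no open circle; macrophage markers have a median of -0.11.

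Genes known as targets or companions of the factors were read in the same fit. Of 17 epithelial genes that Snail proteins repress in epithelial cells, 5 were tested, and 3 of them rose while Snai1 and Snai2 were also higher: Tjp1, a tight junction scaffold that stromal cells express too (log2 1.43, adjusted p = 2.81e-06), Krt19 (1.05, adjusted p = 0.0152) and Dsp (0.69, adjusted p = 0.01). The 3 became 1 when the first Id1+/+ library or the second Id1-/- library was left out. Cdh1, the best known Snail target, had 14 and 13 counts in Id1-/- against 24 and 33 in Id1+/+ and was not called (log2 -0.91, SE 0.41, adjusted p = 0.109). In AE9a Cdh1 had 89 counts in Id1-/- against 70 in Id1+/+, a ratio of 1.28. Of 18 mesenchymal genes of the EMT programme 14 rose and 0 fell (median log2 1.30), while DESeq2, limma-voom and the fit that left out the second Id1+/+ library each called 1 lower. The collagen genes Col1a2 (log2 2.47), Col1a1 (2.67) and Col3a1 (1.57) and the gelatinase Mmp2 (1.70) had the smallest adjusted p of that list.

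Of 14 tested niche genes of CXCL12-abundant reticular cells, the cells that need Foxc1, 5 rose and 1, Cxcl12, fell, with a median log2 of 0.66. The 5 became 4 with DESeq2, with its size factors in edgeR, with limma-voom or with no filter. With library totals or the replicate number as a block the 5 became 7. Cxcl12 was at 32.4 ± 0.29 CPM in Id1-/- and 78.8 ± 8.81 in Id1+/+ (log2 -1.28, SE 0.10, adjusted p = 1.02e-07), opposite in direction to Foxc1, and in AE9a it was at 19.5 CPM in Id1-/- against 68.7 in Id1+/+. Ptn, a heparin-binding growth factor, rose 16-fold (adjusted p = 1.7e-09). The macrophage growth factor Csf1 (log2 0.70) and Ebf1, a factor of the same reticular cells (log2 1.12), also rose.

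The genes whose pattern over the 6 usable libraries was most like that of Prrx1, the factor with the highest CPM, were taken by the smallest root mean square difference of centred log2(CPM + 1) among the 8877 genes that averaged 10 CPM or more. They were Lgr6 (difference 0.07), Sdc2 (0.10), Antxr1 (0.12), Ehd2 (0.12) and Fbln5 (0.13). Here the 6 libraries were scaled together, unlike the CPM of each table given above. Lgr6, an R-spondin receptor, was at 50.5 and 54.6 CPM in MLL-AF9 Id1-/- against 17.3 and 17.5 in Id1+/+. In AE9a Lgr6 was at 40.3 in Id1-/- against 6.8 in Id1+/+. Sdc2 is a cell surface heparan sulphate proteoglycan and Fbln5 an elastic fibre protein. The libraries share genotype and table, so likeness over 6 of them is a description only.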

How the data were processed

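RNA was sequenced from cultured mouse bone marrow stromal cells of 4 groups. For each leukaemia model the authors deposited a table of raw counts by gene name; per the submitters' processing notes the tools were fastp 0.22.0, HISAT2 2.2.1, featureCounts 2.0.1 and DESeq2 1.32.0 with the mm10 genome, in roles, with a strand setting and with an annotation that are not given in the sources used here. The other deposited AE9a columns, a count plus a constant, were treated as a score and served in 1 alternative only. Gene positions and exon lengths came from GENCODE M21 (GRCm38, the assembly of mm10).

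For MLL-AF9, edgeR 4.0.16 in R 4.3.3 removed low genes (filterByExpr), applied TMM factors and gave two-sided p-values from its quasi-likelihood F test. This fit and the joint fit were also run on simulated counts, with an outcome that is not reported here. The simulated AE9a libraries took the MLL-AF9 spread, so these runs could not check the spread assumed for AE9a. Another fit took the replicate number as a block. In AE9a a log2 ratio with a prior count of 2 was taken for genes whose 2 columns summed to 10 or more. Other settings were DESeq2 1.42.0, limma-voom (limma 3.58.1), other scalings, no filter and leaving out each library. Named genes are the 10 factors, up to 4 called genes per list with the smallest adjusted p, and Cdh1 and Cxcl12; 1 gene that this rule names is not reported here. The factors and the 9 other lists were chosen with earlier results of these data known.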

Additional observations from a re-analysis of the deposited data

Results flagged for a closer look

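For 4 factors the genotype difference in the MLL-AF9 table passed the interaction test against that in the AE9a table, in a joint edgeR fit whose spread comes from the MLL-AF9 libraries alone. The MLL-AF9 log2 difference minus the AE9a log2 difference was -0.98 for Prrx1, -1.59 for Prrx2, -1.14 for Tbx15 and -1.44 for Foxc2, so that each was higher in Id1-/- in both models and by more in AE9a. The AE9a side of each value is 1 library per genotype, so its own spread was not measured, and model and table cannot be told apart. With DESeq2 Tbx15 (adjusted p = 0.0995) and Foxc2 (adjusted p = 0.0567) did not pass. In both models the summed mesenchymal markers were higher in Id1-/- too, at 2520 and 2681 CPM in MLL-AF9 Id1-/- against 1169 and 1230 in MLL-AF9 Id1+/+, and at 1401 CPM in AE9a Id1-/- against 691 in AE9a Id1+/+. Col1a1 and Cd44 make up most of these sums, and 7 of the 17 markers tested in MLL-AF9 were not called. Gene by gene, the MLL-AF9 minus AE9a log2 difference was below 0 for 16 of 17 of these markers, with a median of -1.05. It passed the same edgeR interaction test for 7 of the 17, each with the smaller difference in MLL-AF9. A larger difference in AE9a was thus not particular to the factors, and the part of the markers in these differences was not tested.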

How the results depend on the processing

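In MLL-AF9 the 9 factors stayed called higher, and 0 lower, under all 10 alternatives, with 90 of 90 single results on the same side of the threshold. Over all genes, 2434 were called higher and 1502 lower; leaving out 1 library gave 1555 to 2234 higher and 621 to 1630 lower. The lowest higher count came without Id1+/+ replicate 1, and the lower count fell to 764 without it, to 621 without Id1-/- replicate 1 and to 755 without Id1-/- replicate 2. Library totals, which shift the median of all genes by 0.11 on the log2 scale, gave 598 lower and made 84.0% of calls higher ones, against 61.8% with TMM. With the replicate number as a block, 9 factors were called higher and 0 lower, with 2956 genes higher and 2237 lower over all; the deviations of same-numbered libraries correlated at 0.069 over 14137 genes, so they share only a number. The block also called 10 family genes and 1 endothelial marker higher, 2 mesenchymal markers and 2 niche genes lower, and 1 EMT gene lower. In AE9a, the other deposited columns gave 4 factors at least 2-fold higher and 1 lower (Osr2). With a prior count of 2, the log2 ratio of Osr1 was 5.34 there, against 4.10 in the columns used, and those of 7 other factors were 0.38 to 1.18. Those columns include the added constant, 17 for Id1-/- and 134 for Id1+/+, so their ratios are not ratios of levels. The Id1+/+ count of Osr1 (1) and the Id1-/- count of Osr2 (1) lie below the counts at which the constant was checked. For the interaction, DESeq2 called 2 factors in place of 4, with 490 genes larger and 281 smaller in MLL-AF9 over all, and library totals gave 281 larger and 863 smaller, against 993 and 563; the cause was not tested. Depth limits Osr1 in AE9a Id1+/+ (1 count) and Osr2.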
